A study of Homo sapiens with 6 samples.

Results

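Interferon-stimulated genes are switched on when cells sense interferon, and their products act against viruses. In the textbook pathway, type I interferon binds a receptor on the cell surface, the kinases JAK1 and TYK2 phosphorylate STAT proteins, and these join IRF9 to form the complex ISGF3. ISGF3 binds the interferon-stimulated response element, ISRE, in the promoters of its target genes. Many cancer cell lines transcribe some of these genes in culture without added interferon. Nucleic acid sensors in the cytosol can also start interferon production after DNA damage.

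Transcripts of 9 such genes were followed by RNA sequencing in MDA-MB-231, a basal-like breast cancer line. The genes were taken by name (IFIT1, IFIT2, IFIT3, ISG15, MX1, OAS1, IFI44, IFI6 and IRF9), and each had 1 row among the 58735 gene rows of the table. The control group held 3 libraries of cells at 0 Gy. The RT group held 3 libraries of cells collected 24 h after 10 Gy from a 137Cs source. The labels give both groups the genotype WT and the names SCR, and the study describes SCR cells as carrying a non-targeting short hairpin RNA. Both groups are read here as the same single line with the same control vector, although the genotype label WT names no vector. No cells with another vector were analysed here. Nothing states that the libraries of a group came from separate cultures, so p-values measure the spread between these libraries, which may be technical. Bulk RNA cannot tell more RNA in every cell from more cells carrying the RNA.

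The values were FPKM, which is reads scaled to the length of the gene and to a depth set for each library, from poly(A)-enriched RNA. The libraries held between 15643641 and 28861781 reads assigned to genes. The depth implied by the values was 0.973 to 0.991 times these reads in controls and 1.03 to 1.04 times them after 10 Gy. The deposited values therefore carry a scaling beyond the assigned reads, and it differed between the groups. The line's markers were present, with vimentin (VIM) at 301 FPKM and CD44 at 78.6 FPKM in controls, while the estrogen receptor gene ESR1 lay at 0.0087 FPKM and the progesterone receptor gene PGR was listed at 0 in every library. ERBB2 and EPCAM, also listed as low in such a line, lay at 7.08 and 1.44 FPKM in controls. Of 9 markers of blood, stromal and endothelial cells, 3 were at 0 in every library, CD3E and CLEC4C among them, and PTPRC and COL3A1 averaged under 0.1 FPKM in both groups. The blood markers CD14 and LYZ were detected, at 1.96 and 0.042 FPKM in controls and 2.48 and 0.114 FPKM after 10 Gy. The change of CD14, 0.24, was not called (adjusted p = 0.299, limma). The summed level of those 9 markers was 5.59 to 6.83 FPKM in controls and 8.30 to 9.22 FPKM after 10 Gy. COL1A1 rose by 0.37 on the log2 scale (adjusted p = 0.0017, limma) and PECAM1 by 0.40 (adjusted p = 0.0027, limma). Their part in the results below was not tested.

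The RefSeq promoter table (GRCh38.p14) holds windows from 250 bases before to 50 bases after a gene's start, and 8 of the 9 genes matched it. IFIT2 did not match. The core of the ISRE was searched on both strands as GAAA, any 2 bases and GAAA again, which reads TTTC, any 2 bases and TTTC on the opposite strand. It was present in 6 of the 8 genes (75.0%), against 4.38% of the 27305 genes in the table. The longer form, which is the core followed by a C, was present in the same 6 genes and in 0.952% of all genes. The windows below are shown because they carry these letters in the 2 abundant IFIT genes of the table, in ISG15, in IFI44 and in IFI6. Capitals mark the ISRE core, except in the IRF9 line, where they mark a STAT site, searched as TTC, any 3 bases and GAA. All are written 5′ to 3′ on the strand of the gene.
ISG15, chr1:1013364-1013419, plus strand: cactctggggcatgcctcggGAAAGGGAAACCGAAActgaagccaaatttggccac
IFIT1, chr10:89392504-89392532, plus strand: tagTTTCACTTTCcccTTTCGGTTTCcct
IFIT3, chr10:89327841-89327884, plus strand: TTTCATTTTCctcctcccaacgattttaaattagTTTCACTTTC
IFI44, chr1:78649751-78649788, plus strand: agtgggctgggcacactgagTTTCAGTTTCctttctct
IFI6, chr1:27672256-27672368, minus strand: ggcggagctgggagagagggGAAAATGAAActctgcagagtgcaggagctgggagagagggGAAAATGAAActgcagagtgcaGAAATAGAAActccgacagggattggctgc
IRF9, chr14:24161192-24161220, plus strand: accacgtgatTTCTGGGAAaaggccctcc

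The IFI6 window held 3 cores, starting 156, 115 and 93 bases before the gene start. ISG15 and IFIT1 held 2 cores each, and in ISG15 these overlapped, so that they form 1 run of capitals. IFIT3 has 2 starts in the table with 2 cores before each, 4 in all, and the window before the upstream start is shown. IFI44 also has 2 starts, and held 1 core, 18 bases before the upstream one. The sixth gene, MX1, held an ISRE core 196 bases before its start, and a STAT site that overlapped it. The STAT site, which reads the same on both strands, was present in 3 of the 8 genes (IRF9, OAS1 and MX1), against 9.38% of all genes. These matches are letters in a window, and binding was not measured.

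The 9 genes spanned a wide range of levels in unirradiated cells. ISG15, a ubiquitin-like protein that is attached to other proteins, stood at the top with 165 ± 18.9 FPKM (SD, n = 3). Among the 12128 genes that averaged at least 1 FPKM over all libraries, its control level lay at percentile 98.4. IFIT3 followed with 85.3 ± 5.26 FPKM (SD, n = 3), at percentile 96.1. The next 3 genes lay close together, with IFI44 at 28.3 ± 2.53, IFIT1 at 27.2 ± 1.33 and IFIT2 at 26.6 ± 1.77 FPKM (SD, n = 3), and the libraries of neighbours in this order overlapped. IFI6 stood lower, at 9.76 ± 1.22 FPKM and percentile 59.5. MX1 reached 1.43 ± 0.045 FPKM, at percentile 9.23. OAS1 at 0.534 ± 0.067 FPKM and IRF9 at 0.182 ± 0.058 FPKM fell under the minimum for the test. Every other pair of neighbours in the order was separated in all 3 control libraries. FPKM divides by gene length, which here is the union of all annotated exons of a gene. MX1 was divided by 8616 bases, of which 2009 are coding, and ISG15 by 941, of which 495 are coding. Which of the annotated exons were transcribed was not tested, so levels compare only roughly between genes. The place of IRF9 is further uncertain, for reasons given below. The order was the same after conversion to TPM, which scales each library to the same total. That conversion cannot change the order of genes inside a library, so it is no check of the order. ISG15 alone made up 47.8% of the summed FPKM of the 9 genes in controls and 45.1% after 10 Gy.

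**Figure D1:**
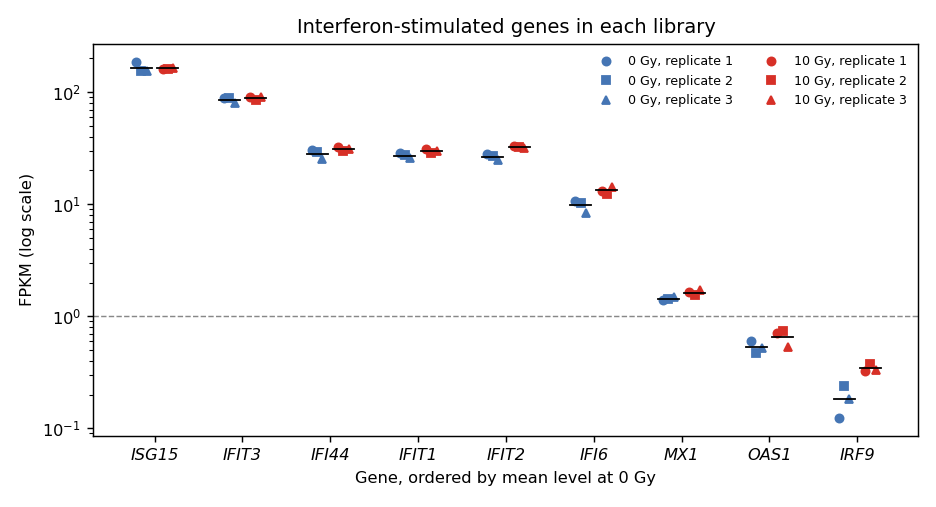
FPKM of each of the 9 genes (log axis) in each of the 3 control and 3 RT libraries, with the mean of each group as a bar and the minimum of 1 FPKM as a dashed line. The genes span from ISG15 at 165 FPKM to IRF9 at 0.182 FPKM in controls, and the RT libraries lie above all controls for IFIT1, IFIT2, IFI6, MX1 and IRF9.

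After 10 Gy, 2 of the 7 genes that could be tested were higher, IFIT2 and IFI6, and 0 were lower. The count of lower genes was also 0 at an unadjusted p under 0.05 and with limma-voom. Across all 12128 genes tested, 11.9% were higher and 23.7% were lower at an adjusted p under 0.05 (limma on log2(FPKM + 1), Benjamini-Hochberg). The median log2 change of the 7 genes was 0.13, against -0.04 over all genes tested. The change lay above 0 for 6 of the 7 (85.7%), against 41.4% of all genes tested. The RT libraries lay above every control library for 4 of the 7, IFIT1, IFIT2, IFI6 and MX1, and this was so for 19.1% of all genes tested. They lay below every control library for 0 of the 7, against 32.8% of all genes tested. Each change was small: 1 of the 7 passed the test with a change of at least 1.3-fold, IFI6, as did 2.82% of all genes tested on the higher side.

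IFIT1, IFIT2 and IFIT3 are made from neighbouring genes of chromosome 10, and their proteins bind foreign RNA and one another. On GRCh38, IFIT2 lies at chr10:89283694-89309276, IFIT3 at chr10:89327894-89340971 and IFIT1 at chr10:89392546-89406486, all on the plus strand and within the span of LIPA, a gene of the minus strand. IFIT2 measured 28.2, 26.9 and 24.7 FPKM in the 3 controls and 33.4, 32.5 and 31.5 FPKM after 10 Gy. Every irradiated library was above every control. The change was 0.28 on the log2 scale (SE 0.051, 95% confidence interval 0.16 to 0.40), or 1.21-fold, with an adjusted p of 0.00635 (limma). Of all genes tested, 7.27% had a change at least as large upward. This value rested on 1695 to 4093 reads per library. Of the exon bases of IFIT2, 8.68% are shared on the same strand with AL353751.1, whose own level did not exceed 0.325 FPKM.

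IFIT1 measured 28.3, 27.4 and 25.7 FPKM in controls and 30.8, 28.8 and 29.5 FPKM after 10 Gy. The groups did not overlap, but the change of 0.13 (SE 0.044, 95% confidence interval 0.02 to 0.23) missed the threshold at an adjusted p of 0.062 (limma). IFIT3, the most abundant of the 3, measured 88.1, 88.6 and 79.3 FPKM in controls and 90.0, 85.7 and 91.4 FPKM after 10 Gy. Its groups overlapped, and the change was 0.06 (95% confidence interval -0.06 to 0.18) with an adjusted p of 0.370 (limma). As deposited, the interval of IFIT3 therefore reaches from a small fall to a rise of 1.13-fold. IFIT1 and IFIT3 were both called higher with each of the other scalings described below, TPM, upper quartile and voom. For IFIT3 the changes were 0.19, 0.32 and 0.14 (adjusted p = 0.0148, 0.0149 and 0.0123, limma).

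The 3 neighbouring genes could also be compared inside each library, where the scaling of the library cancels. The ratio of IFIT2 to IFIT1 was 0.995, 0.981 and 0.961 in controls and 1.08, 1.13 and 1.07 after 10 Gy. The ratio of IFIT2 to IFIT3 was 0.320, 0.304 and 0.312 in controls and 0.371, 0.379 and 0.344 after 10 Gy. Both ratios were higher in all 3 irradiated libraries, with a 2-sided exact permutation p of 0.1 each, the smallest that 3 against 3 libraries allow. The ratio of IFIT3 to IFIT1 overlapped between the groups, at 3.14 ± 0.079 in controls and 3.00 ± 0.088 after 10 Gy (SD, n = 3). These are 3 of 9 ratios computed, and they were chosen after the values were seen. Adjusted over the 9, no ratio can pass 0.05 in this design.

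The next IFIT gene in the family, IFIT5, was 10.4 ± 0.688 FPKM in controls and 9.59 ± 0.229 FPKM after 10 Gy, a change of -0.11 with an adjusted p of 0.126 (limma). Every irradiated library was below every control for IFIT5. IFIT1B lay at 0.0079 FPKM in controls.

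IFI6, a small membrane protein known to limit flavivirus replication, carried the largest fitted change among the 7 genes. It lies at chr1:27666061-27672218 on the minus strand and shares no exon base with another annotated gene. IFI6 measured 10.7, 10.2 and 8.38 FPKM in controls and 13.1, 12.3 and 14.4 FPKM after 10 Gy. All 3 irradiated libraries were above the controls. The change was 0.41 (SE 0.090, 95% confidence interval 0.20 to 0.62), or 1.33-fold, with an adjusted p of 0.0128 (limma). An upward change of at least that size was seen in 3.09% of all genes tested. The gene is short, and its value came from 136 to 339 reads per library. Without a minimum level, which raises the number of genes tested to 31650, the adjusted p of IFI6 was 0.059 (limma).

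IFI44, a cytoplasmic protein of the same response, lies at chr1:78649796-78664078. It measured 30.3, 29.1 and 25.4 FPKM in controls and 32.4, 29.9 and 30.8 FPKM after 10 Gy. The groups overlapped, and the change was 0.13 (95% confidence interval -0.02 to 0.29) with an adjusted p of 0.152 (limma). With TPM, upper quartile scaling and voom, IFI44 was called higher (adjusted p = 0.0159, 0.0068 and 0.0068, limma). Its paralogue IFI44L lay at 0.222 ± 0.018 FPKM in controls and 0.207 ± 0.033 FPKM after 10 Gy.

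ISG15 lies at chr1:1001138-1014540 in the annotation of the table. It measured 187, 154 and 154 FPKM in controls and 161, 162 and 165 FPKM after 10 Gy. Control replicate 1 stood above the other 5 libraries, and the 3 irradiated libraries lay between the controls. The change was -0.01 (SE 0.074, 95% confidence interval -0.19 to 0.16) with an adjusted p of 0.905 (limma). Without control replicate 1 the change was 0.08 with an adjusted p of 0.048 (limma). That library also decided IFIT1, whose change without it was 0.16 with an adjusted p of 0.033 (limma), so that 4 of the 7 genes were higher in that fit. The sign of the ISG15 change also turned with the scaling of the libraries, as given below. Inside each library, the ratio of IFI6 to ISG15 was 0.057, 0.066 and 0.054 in controls and 0.081, 0.076 and 0.087 after 10 Gy (exact permutation p = 0.1, 2-sided).

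The proteins that attach ISG15 to its targets were followed as a list of 7 genes with ISG15 and the protease that removes it. In the lists from here on, a gene can stand in more than 1 list, so their counts are not separate evidence. All give the values as deposited, to be read against the 11.9% higher and 23.7% lower among all genes tested. Of the 7, 2 were higher (28.6%) and 1 was lower (14.3%), and 5 were higher and 0 lower with TPM and with upper quartile scaling. The higher genes were UBA7, the activating enzyme, by 0.30 (adjusted p = 0.0074, limma), and UBE2L6, the conjugating enzyme, by 0.26 (adjusted p = 0.0045, limma). UBA7 went from 3.50 ± 0.162 to 4.54 ± 0.304 FPKM and UBE2L6 from 12.3 ± 0.406 to 15.0 ± 0.714 FPKM (SD, n = 3). The ligase TRIM25 was lower, by -0.12 (adjusted p = 0.035, limma), but lay at 0.0031 with TPM scaling and at 0.13 with upper quartile scaling. HERC5, the main ligase, changed by 0.03 (adjusted p = 0.722, limma), and the protease USP18 by 0.21 (adjusted p = 0.064, limma). The median change of the list was 0.11, against -0.04 over all genes tested.

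MX1, a GTPase that blocks viral ribonucleoproteins, lies at chr21:41420304-41459214. It measured 1.39, 1.41 and 1.48 FPKM in controls and 1.63, 1.55 and 1.70 FPKM after 10 Gy. The groups did not overlap, yet the change of 0.11 (95% confidence interval -0.03 to 0.26) did not pass the test, with an adjusted p of 0.177 (limma). At such a level, adding 1 before the logarithm shrinks a change, and the ratio of the FPKM means was 1.14. With 0.1 added in place of 1, the adjusted p stayed above 0.05. With voom, MX1 was called higher, by 0.27 (adjusted p = 0.017, limma-voom). MX2, its paralogue, averaged 0.178 FPKM in controls and 0.273 FPKM after 10 Gy.

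OAS1, which makes the 2-5A messenger that activates RNase L, lies at chr12:112906777-112933222. It measured 0.607, 0.473 and 0.523 FPKM in controls and 0.703, 0.731 and 0.532 FPKM after 10 Gy, from 36 to 104 reads per library. The groups overlapped (exact permutation p = 0.2, 2-sided). Its neighbours in the gene cluster were more abundant. OAS2 went from 5.08 ± 0.341 to 6.18 ± 0.134 FPKM, a rise of 0.24 (adjusted p = 0.0109, limma). OAS3 lay at 8.07 ± 0.617 and 7.67 ± 0.349 FPKM, with a change of -0.06 (adjusted p = 0.434, limma).

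IRF9, the DNA-binding subunit of ISGF3, lies at chr14:24161053-24166565. It measured 0.124, 0.240 and 0.183 FPKM in controls and 0.326, 0.375 and 0.329 FPKM after 10 Gy. The irradiated libraries were above all controls (exact permutation p = 0.1, 2-sided, the smallest this design allows), and the ratio of the means was 1.89. The counts behind these values were 10, 14 and 15 reads in controls and 37, 26 and 27 reads after 10 Gy. With the minimum lowered to 0.1 FPKM, the change was 0.19 with an adjusted p of 0.114 (limma). The level of IRF9 is uncertain, because 88.9% of its coding bases and 48.4% of its exon bases are shared on the same strand with the annotated gene AL136295.5. That gene measured 0.127, 0.203 and 0.250 FPKM in controls and 0.293, 0.320 and 0.241 FPKM after 10 Gy. How reads in shared exons were counted is not given in the sources used here.

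**Figure D2:**
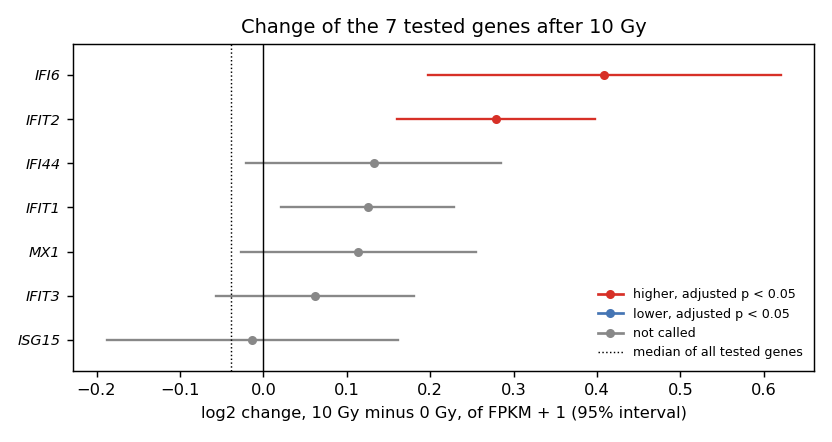
Change of the 7 tested genes on the log2(FPKM + 1) scale, 10 Gy minus 0 Gy, with 95% confidence intervals from limma and the median of all genes tested as a line. IFI6 at 0.41 and IFIT2 at 0.28 passed the test, and the interval of IFIT1 starts at 0.02 although its adjusted p was 0.062.

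STAT2, which ISGF3 also contains, was read in a list of 10 transcription factors of the pathway. As deposited, 1 of the 8 tested was called (12.5%, against 11.9% of all genes), and 5 were higher with TPM, 5 with upper quartile scaling and 3 with voom. The 1 called was STAT2, at 9.17 ± 0.609 FPKM in controls and 11.3 ± 0.058 FPKM after 10 Gy, a rise of 0.28 (adjusted p = 0.0048, limma). IRF1 changed by 0.13 (adjusted p = 0.097, limma) and IRF7 by 0.05 (adjusted p = 0.490, limma).

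Transcripts of the interferons themselves were at or near the limit of detection. Of 21 interferon genes, 19 had no read in any library. IFNB1 had 0 reads, and 3 reads, the limit that a count of 0 allows, would have been 0.117 to 0.227 FPKM depending on the library. This limit covers counting error only. IFNL1 had 3, 1 and 0 reads in controls and 0, 1 and 3 reads after 10 Gy. IFNL3 had 2 reads in RT replicate 1. No change of an interferon transcript was detectable at this depth.

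Of 9 receptor and kinase genes, 7 were tested and 1 (14.3%), JAK1, was higher, by 0.12 (adjusted p = 0.033, limma). That call was lost with the replicate block, with no trend, with no minimum level, and when any 1 library other than control replicate 2 was left out. The call of JAK1 was kept with TPM and upper quartile scaling (adjusted p = 0.0041 and 0.0064, limma) and with voom (adjusted p = 0.00051, limma-voom). Under each of these, 2 genes of the list were higher and 0 lower. IFNAR1, a chain of the type I receptor, measured 11.9 ± 0.614 FPKM in controls and 10.9 ± 0.354 FPKM after 10 Gy, a change of -0.12 (adjusted p = 0.085, limma). Its partner IFNAR2 lay at 0.222 FPKM in controls, and 86.9% of its coding bases are shared with another annotated gene.

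Among 16 tested genes of nucleic acid sensing, 4 were higher (25%) and 3 lower (18.8%), against 11.9% and 23.7% of all genes. With TPM scaling 5 were higher and 1 lower, and with upper quartile scaling 5 and 0. The adaptors MAVS and TMEM173, the gene of STING, rose by 0.30 (adjusted p = 0.0014, limma) and 0.25 (adjusted p = 0.0019, limma). The RNA sensor DDX58, which encodes RIG-I, rose by 0.17 (adjusted p = 0.0140, limma), and its relative DHX58 by 0.28 (adjusted p = 0.0097, limma). CGAS, the cytosolic DNA sensor, changed by -0.06 (adjusted p = 0.180, limma). RNASEH2C, a subunit of RNase H2, fell by 0.34 on the log2 scale (adjusted p = 0.0027, limma), a call lost with upper quartile scaling (adjusted p = 0.404). The call of RNASEH2C was kept with TPM (adjusted p = 0.0063, limma) and with voom (adjusted p = 0.00020, limma-voom). The kinase IKBKE fell by 0.20 (adjusted p = 0.0086, limma), although with upper quartile scaling its change was 0.04. TRIM25, given above, was the third lower gene.

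Of 10 tested negative regulators, 1 was higher (10%) and 3 lower (30%) as deposited, against 11.9% and 23.7% of all genes. This balance turned with the scaling, to 6 higher and 1 lower with TPM, 6 and 0 with upper quartile, and 4 and 1 with voom. SOCS3, an inhibitor of cytokine receptor signalling, fell by 0.34 (adjusted p = 0.0022, limma), from 43.3 to 34.1 FPKM (SE of the log2 change 0.045), a call lost with upper quartile scaling (adjusted p = 0.509). The call of SOCS3 was kept with TPM (adjusted p = 0.010, limma) and with voom (adjusted p = 0.00029, limma-voom). PIAS3 rose by 0.17 (adjusted p = 0.0150, limma), a call lost without RT replicate 2. PIAS4 fell by 0.19 and PTPN2 by 0.13 on the log2 scale, and both turned to small positive values, 0.05 and 0.08, with upper quartile scaling. Both calls were lost without RT replicate 1 and without RT replicate 2.

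A list of 47 further interferon-stimulated genes was read in the same way. Of the 40 tested, 13 were higher (32.5%) and 1 was lower (2.5%), against 11.9% and 23.7% of all genes tested. Of the 13, STAT2, UBA7, UBE2L6, DDX58, DHX58 and OAS2 were described above, as was TRIM25, the 1 lower. The median change of the 40 was 0.06, against -0.04 over all genes tested, and 27 of the 40 (67.5%) lay above 0, against 41.4%. Every RT library lay above every control for 17 of the 40 and below for 5, against 19.1% and 32.8% of all genes tested. IFITM1, a membrane protein that blocks virus entry, had the largest rise, from 3.35 ± 0.193 to 5.51 ± 0.634 FPKM, or 0.58 on the log2 scale (adjusted p = 0.0020, limma). Of its coding bases, 50.4% are shared with IFITM2, which overlaps it on the same strand. Its relatives IFITM2 and IFITM3 changed by 0.08 (adjusted p = 0.318, limma) and -0.07 (adjusted p = 0.369, limma). RNF213, a large ubiquitin ligase, rose by 0.40 (adjusted p = 0.0137, limma), a call lost without RT replicate 2, and ISG20, an exonuclease, by 0.28 (adjusted p = 0.0076, limma). PARP9 and PARP14 rose by 0.26 and 0.27, and SAMD9 and HERC6 by 0.13 and 0.14, and these 4 calls were lost without RT replicate 2. RSAD2, an antiviral radical enzyme, lay under the minimum at 0.453 FPKM in controls and 0.566 FPKM after 10 Gy.

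**Figure D3:**
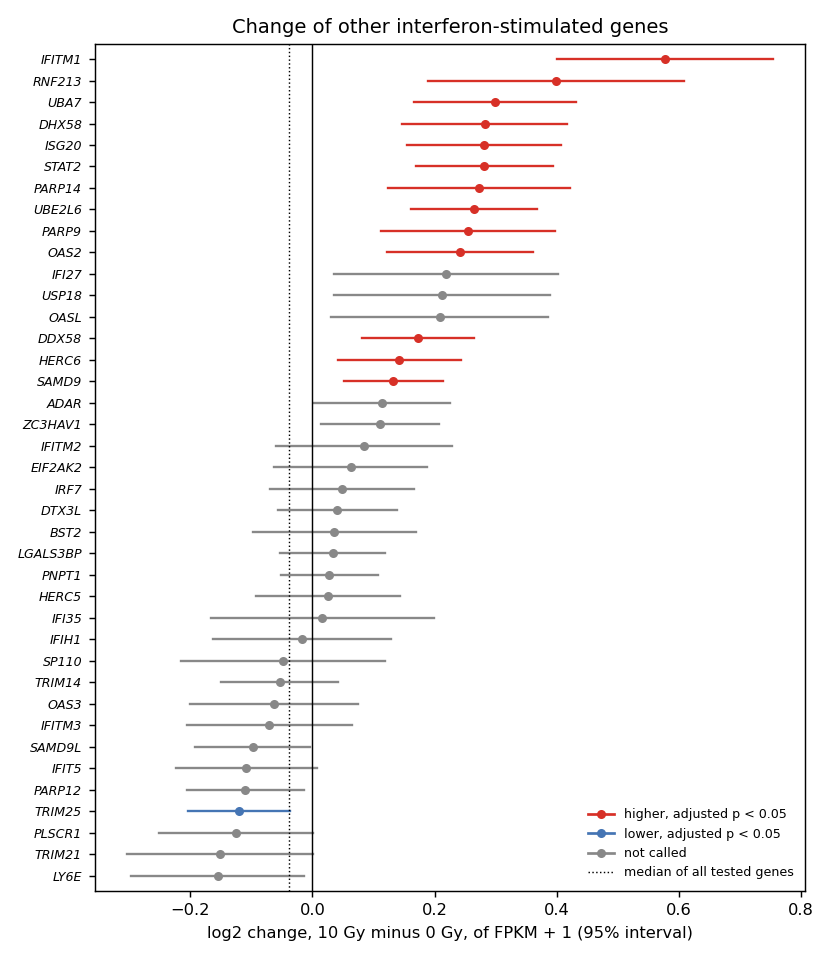
Change of 39 of the 40 tested further interferon-stimulated genes on the log2(FPKM + 1) scale, 10 Gy minus 0 Gy, with 95% confidence intervals from limma. IFITM1 is at the top with 0.58, 13 genes passed the test on the higher side, and TRIM25 passed it on the lower side.

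Genes known chiefly as targets of interferon gamma were counted separately. Of 19 tested, 2 were higher (10.5%) and 6 lower (31.6%) as deposited, against 11.9% and 23.7% of all genes. This balance turned with the scaling, to 9 higher and 2 lower with TPM, 9 and 0 with upper quartile, and 9 and 3 with voom. GBP4, a guanylate-binding protein, rose by 0.40 (adjusted p = 0.0024, limma), and the adhesion molecule ICAM1 by 0.39 (adjusted p = 0.0071, limma). HLA-DRA, a chain of MHC class II, fell by 0.39 (adjusted p = 0.0098, limma), and CD274, the gene of PD-L1, by 0.36 (adjusted p = 0.0023, limma). Both calls were lost with upper quartile scaling, at an adjusted p of 0.246 and 0.187 (limma). Both were kept with TPM (adjusted p = 0.026 and 0.0084, limma) and with voom (adjusted p = 0.0026 and 0.00091, limma-voom). GBP1, CD74, WARS and NMI were lower by 0.21, 0.18, 0.14 and 0.14 on the log2 scale as deposited, and each turned to a positive value with upper quartile scaling. These 4 calls were lost without RT replicate 1 and without RT replicate 2.

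Replicate libraries also differed in the level of these genes. Among the 7 tested, control replicate 3 held the lowest control value for 5 and control replicate 1 the highest for 5. Over all genes tested, those libraries were lowest for 36.2% and highest for 43.8%. After 10 Gy, replicate 2 held the lowest value for 5 of the 7, against 36.2% of all genes, and replicate 3 the highest for 4, against 37.2%. The summed FPKM of the 9 genes was 374, 338 and 320 in controls and 364, 354 and 365 after 10 Gy. The groups overlapped in this sum, and the ratio of the means was 1.05.

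Outside the lists, the genes whose profile over the 6 libraries lay nearest to the median profile of the 7 tested genes were ORMDL3, AK1, WNT7B, ARHGEF10L and TNFRSF10D. Their root mean square differences from it, on the centred log2 scale, were 0.0151, 0.0191, 0.0204, 0.0216 and 0.0217. Among the 7 genes themselves the difference ran from 0.0095 for IFIT1 to 0.160 for IFI6.

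The size of these changes depended on how the libraries were scaled. The FPKM of all genes summed to 269611 to 278380 in controls and to 246920 to 254918 in irradiated libraries, so the same reads give other ratios once the sums are made equal. The median log2 change of all genes was -0.04 as deposited, 0.08 with TPM scaling, 0.18 with upper quartile scaling and 0.03 with limma-voom on the reads. The upper quartile was taken over the genes above 0 in each library. Its factor was highest, 1.17, in control replicate 2, which had the fewest such genes (22169) and the fewest reads. It was lowest, 0.848, in RT replicate 1, which had the most of both (26496 genes). Whether the number of genes detected set these factors was not tested. The share of calls that were higher was 33.4% as deposited, 74.5% with TPM, 97.0% with upper quartile and 60.2% with voom. With TPM, upper quartile and voom, 5, 5 and 6 of the 7 genes were higher, against 25.7%, 32.3% and 23.4% of all genes. IFIT1, IFIT2, IFIT3, IFI44 and IFI6 were higher under each, and voom added MX1. ISG15 changed sign, to 0.11, 0.24 and 0.06. Voom differed in more than scaling. It took the summed reads of the tested genes as library size, weighted the values and did not add 1 FPKM. With TPM the added 1 weighs less, since the values are larger (MX1 averaged 5.23 TPM and 1.43 FPKM in controls). How much of each move came from scaling alone was not tested.

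The changes were also taken relative to the median change of all genes. IFI6 lay 0.45 above that median as deposited, and 0.48, 0.47 and 0.50 above it with TPM, upper quartile and voom. IFIT2 lay 0.32 above it as deposited, and 0.34, 0.35 and 0.34 above it under the same scalings. IFIT1, IFI44, MX1 and IFIT3 lay 0.16, 0.17, 0.15 and 0.10 above it as deposited, and ISG15 0.03. With upper quartile scaling and voom, MX1 lay 0.09 and 0.24 above it. A scaling moves all genes of a library nearly alike, so the agreement between these scalings was nearly fixed in advance. All 7 lay above the median of all genes under each of them. With a minimum of 0.1 FPKM or none, and without control replicate 2 or 3, 6 of the 7 did. ISG15 lay at -0.016 to -0.026 relative to the median in those fits.

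**Figure D4:**
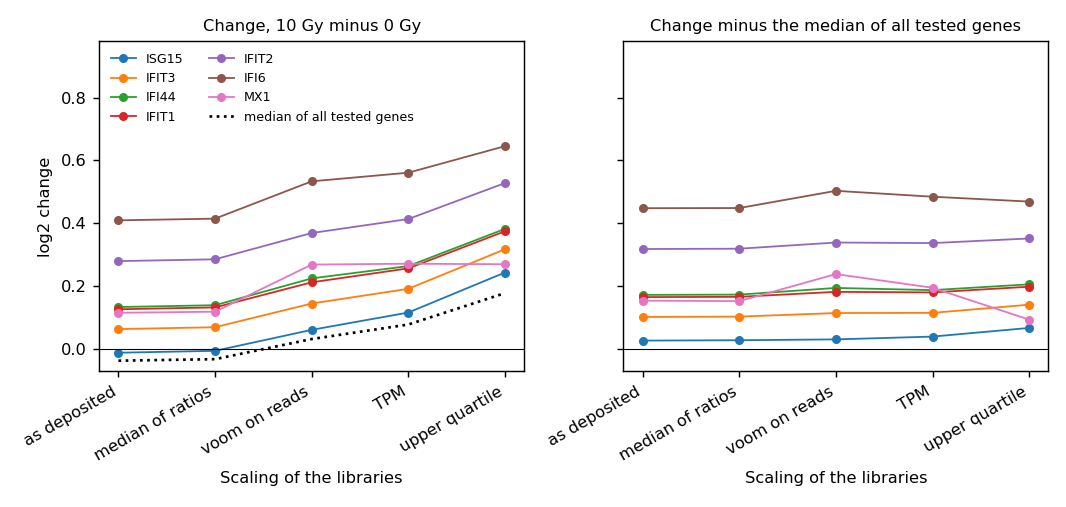
Log2 change of the 7 tested genes under 5 scalings of the libraries, as fitted (left) and after subtracting the median change of all genes tested (right). Voom also differs in using reads, weights and no added 1 FPKM. Median-of-ratios scaling had factors of 1.0003 to 1.0066 and so nearly repeats the values as deposited. As fitted, ISG15 runs from -0.01 as deposited to 0.24 with upper quartile scaling. Relative to the median, IFI6 lies between 0.45 and 0.50 and IFIT2 between 0.32 and 0.35, and the subtraction itself removes most of what a scaling shifts.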

How the data were processed

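RNA of MDA-MB-231 cells was sequenced in 6 libraries, 3 at 0 Gy and 3 at 10 Gy, grouped by the treatment in the labels. The authors deposited FPKM values from poly(A) libraries made by their provider; the submitters' processing notes name HISAT2 and GRCh38, and the counting program is not given in the sources used here. Gene identifiers, coordinates and exon overlaps are those of GENCODE on GRCh38, and each of 166 listed genes had a deposited length equal to its exon union. FPKM multiplied by gene length and the depth implied for the library gave whole reads for 100% of values (tolerance 0.02 reads); these served for counts and for limma-voom.

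Genes averaging at least 1 FPKM (12128) were fitted as log2(FPKM + 1) with limma 3.58.1 (R 4.3.3), with an intensity trend, without a replicate block, and Benjamini-Hochberg adjustment over all genes. The added 1 understates changes of low genes. Single values were compared by exact permutation tests. The fit was also run on simulated data with known changes, the same dispersion for all genes and no scaling difference between the groups. That run is no check of the scaling. The genes named were the 9, up to 5 called genes with the largest rise and 5 with the largest fall in each list, any gene of the pathway lists, and the 5 genes nearest in profile. Paralogues of the 9 (IFIT5, IFIT1B, IFI44L, MX2, OAS3), IFITM2, IFITM3, RSAD2, PARP9, PARP14, SAMD9, HERC6 and NMI were named after their values were seen. The members and lists were chosen with earlier results of these data known. Alternatives were another pseudocount, lower and no minimum, other scalings, a replicate block, no trend, and leaving out each library. Single values of some listed genes are not reported here. Fold changes in other files of the study were not used.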

Additional observations from a re-analysis of the deposited data

How the results depend on the processing

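Over 15 alternatives, IFIT2 stayed higher in all 15 (log2 change 0.23 to 0.53, adjusted p from 1.9e-05 to 0.029, limma) and IFI6 in 14 (0.31 to 0.65), missing the threshold with no minimum level. Among the 15, median-of-ratios scaling had factors of 1.0003 to 1.0066 and nearly repeats the values as deposited. The members higher numbered 2 of 7 as deposited, 1 with no minimum, 5 with TPM, 5 with upper quartile scaling, 6 with limma-voom, and 2 to 4 with 1 library left out. Without control replicate 1, the 4 included ISG15 and IFIT1. ISG15 turned from -0.01 to 0.11 (TPM), 0.24 (upper quartile) and 0.060 (voom), and ran from -0.059 to 0.079 with 1 library left out, the highest without control replicate 1. Over all genes, 4317 changed, and 2660 to 3993 did with 1 library left out, fewest without RT replicate 1 or 2. Genes higher numbered 1443, 3113 with TPM, 3923 with upper quartile, 2844 with voom, and 852 to 1393 with 1 library left out. Genes lower numbered 2874, 1815 with no minimum, 1066 with TPM, 122 with upper quartile, 1884 with voom, and 1808 to 2630 with 1 library left out. Of the further interferon-stimulated genes, 14 changed, against 9 with no minimum, 25 with TPM, 26 with upper quartile, and 8 to 16 with 1 library left out. Those higher numbered 13, against 25 with TPM, 26 with upper quartile, 20 with voom, and 8 to 15 with 1 library left out, fewest without RT replicate 2. The 1 lower, TRIM25, was 0 of the list with a minimum of 0.1 FPKM, no minimum, TPM, upper quartile, voom, no trend and the replicate block, and 0 to 2 were lower with 1 library left out. TRIM25 turned to 0.0031 with TPM and 0.13 with upper quartile. Upper quartile scaling alone turned IKBKE (0.040), PIAS4 (0.046), PTPN2 (0.084), GBP1 (0.023), CD74 (0.072), WARS (0.10) and NMI (0.078). Where these values moved, the cause was not tested.

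The replicate numbers are shared by the groups but did not pair the libraries: the correlations of same-numbered libraries were -0.04, -0.03 and -0.10. With the replicate block, 2 members were higher, as without it, and 1137 genes were higher and 2366 lower. With 3 libraries a group, the exact test cannot go below p = 0.1, and at 10 to 37 reads IRF9 is the least precise of the 9 genes.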

Other observations

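Several listed genes share exons with another annotated gene on the same strand. Of 9 listed genes with at least 50% of their coding bases shared, 6 averaged under 1 FPKM: IRF9, IFNAR2, IL10RB, TREX1, RNASEH2A and IFI30. The other 3, TAP2, PSMB10 and IFITM1, averaged 15.2, 4.78 and 3.35 FPKM in controls. Of the 136 other listed genes, interferons left out, 28 did. TREX1 was listed at 0 in every library, and all of its coding bases are shared with ATRIP. IL10RB averaged 0.060 FPKM in controls, with 80.8% of its coding bases shared. How reads in such exons were counted was not tested.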
